A study of Mus musculus with 12 samples.

Results

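The genes described here encode nuclear subunits of the mitochondrial oxidative phosphorylation system, that is, of the 4 respiratory chain complexes and of ATP synthase. They were taken by gene symbol from a table of 24692 entries: symbols of the Ndufa, Ndufb, Ndufc, Ndufs and Ndufv series, Sdha to Sdhd, and symbols that begin with Uqcr, Cox4 to Cox8 or Atp5. The rule found 84 genes, of which 35 belong to complex I, 4 to complex II, 8 to complex III, 20 to complex IV and 17 to complex V. Of the 84, 76 reached 1 FPKM in at least 3 libraries and were tested for differences between populations. FPKM divides the fragments of a gene by its length and by the size of the library, so it allows levels of different genes to be compared.

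The libraries came from back skin of male mice that carried 2 fluorescent reporters, Sox2:GFP and aSMA:dsRed, at postnatal day 26 to 27, when the hair follicle enters a growth phase. All 4 populations came from animals of that strain, age and sex, and each has 3 libraries: hair follicle dermal stem cells (hfDSC, replicates 1, 2 and 4), dermal sheath (DS, replicates 1, 4 and 5), dermal papilla (DP, replicates 1, 2 and 4) and interfollicular dermis (IFD, replicates 1, 2 and 6). Cells were sorted by flow cytometry. The DS library numbered 1 has a title of another form (DSL1) whose meaning the labels do not give. The labels do not tie replicates to different animals. The p-values therefore reflect variation among the 12 libraries, and this variation may be technical.

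Complex I takes electrons from NADH and complex II from succinate. Both pass them through ubiquinone to complex III, cytochrome c and complex IV, where oxygen is reduced, and complex V uses the proton gradient to make ATP. Most complexes combine subunits encoded in the nucleus, described here, with a core encoded by mitochondrial DNA, whose 13 protein-coding genes are not analysed here. Several complex IV subunits and subunit c of ATP synthase exist as isoforms from separate genes, some of them used mainly in muscle, lung or testis.

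Marker genes of the libraries bear on every comparison below. Of 7 fibroblast genes, all 7 were found, and their summed level was 9090 to 11578 FPKM in hfDSC and 13138 to 23719 in DP, but 949 to 1897 in the libraries labelled DS and 809 to 1526 in those labelled IFD. The summed level of 8 keratinocyte genes ran from 588 to 1129 FPKM in hfDSC, 897 to 1039 in DS, 1052 to 3138 in DP and 856 to 1273 in IFD. Members of that list went in opposite directions. The basal keratinocyte gene Trp63 ran from 75.8 to 147 FPKM in the DS and IFD libraries and from 8.86 to 24.8 in the hfDSC and DP libraries. The suprabasal keratin gene Krt10 averaged 1528 FPKM in DP and 361 in hfDSC against 53.4 in DS and 167 in IFD, and Krt1 438 and 78.0 against 10.5 and 16.5. The summed level of 4 sheath and smooth muscle genes was 1475 to 1648 FPKM in hfDSC, 98.8 to 339 in DS, 57.5 to 173 in DP and 14.3 to 33.3 in IFD. Among them Acta2, which encodes smooth muscle actin (aSMA), averaged 872 FPKM in hfDSC and 49.3 in DS. The sum of 6 papilla genes was 150 to 738 FPKM in DP, 138 to 284 in hfDSC and at most 48.0 in DS and IFD. The sum of 5 melanocyte genes was 186 to 787 FPKM in DP and 147 to 898 in IFD, against 16.2 to 86.1 in hfDSC and 8.96 to 18.2 in DS. The summed level of 4 proliferation genes (Mki67, Top2a, Ccnb1, Cdk1) was 213 to 257 FPKM in DS and 143 to 168 in IFD, against 9.86 to 33.2 in hfDSC and 7.88 to 18.7 in DP. For 5 adipocyte genes the sum was 196 to 590 FPKM in hfDSC, 42.5 to 352 in DS, 162 to 1838 in DP and 200 to 417 in IFD. Its highest value was that of DP replicate 2. For 5 immune genes it was 38.4 to 948, 30.3 to 250, 234 to 615 and 69.1 to 174 FPKM in the same order. DS and IFD are used below as names for the libraries carrying those labels, and every direction that involves them rests on those labels. The part of these marker differences in the results on subunits was not tested. In sorted bulk samples, fewer cells of a type and less RNA per cell cannot be told apart. Summed FPKM ran from 181683 to 262695 per library, and relative sequencing depth, read from genes under 0.3 FPKM, from 0.633 in DP replicate 4 to 1.93 in IFD replicate 6 relative to hfDSC replicate 2.

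The subunits together took the smallest share of the transcriptome in dermal papilla. They summed to 2957, 3350 and 2480 FPKM in DP replicates 1, 2 and 4, which was 1.24%, 1.44% and 1.20% of all FPKM in those libraries. In hfDSC the sums were 3919, 4434 and 3818 FPKM, or 1.49%, 1.82% and 1.64%. In DS they were 4164, 5063 and 6004 FPKM (2.19%, 2.51% and 2.74%), and in IFD 6189, 7057 and 3576 FPKM (2.94%, 3.35% and 1.97%). All 3 DP libraries lay below every other library by this share, and all DS and IFD libraries lay above the hfDSC libraries. IFD replicate 6 held far fewer subunit transcripts than the other two IFD libraries, and its sum in FPKM lay between the DP and hfDSC ranges. Dividing the libraries by median-of-ratios factors, which leaves each share as it is, gave sums of 3673, 3587 and 3040 in DP, 3886, 4267 and 4002 in hfDSC, 3580, 4568 and 4909 in DS and 5541, 6486 and 3170 in IFD. On that scale DP overlapped DS replicate 1 and IFD replicate 6 and stayed below hfDSC. The unscaled mean sum ± SD (n = 3) was 4057 ± 330 FPKM in hfDSC, 5077 ± 920 in DS, 2929 ± 436 in DP and 5607 ± 1812 in IFD.

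**Figure D1:**
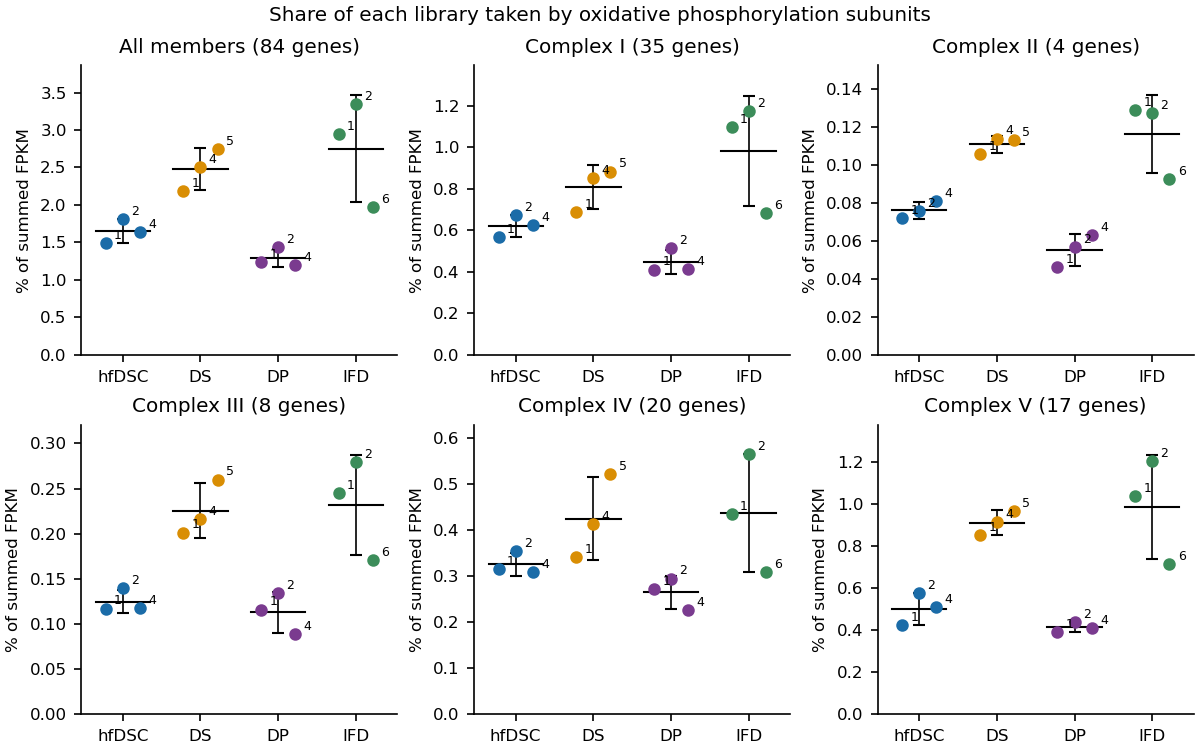
Share of summed FPKM (y axis, percent) taken by all 84 subunit genes and by each complex, for the 4 populations (x axis); each point is a library labelled with its replicate number, the horizontal line is the mean and the bar the SD (n = 3). All members took 1.20% to 1.44% in DP and 1.97% to 3.35% in the DS and IFD libraries.

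The complexes differed in how far the populations lay apart. Complex V sums averaged 934 ± 86.9 FPKM in DP, 1233 ± 151 in hfDSC, 1860 ± 249 in DS and 2004 ± 637 in IFD (SD, n = 3). As a share of all FPKM, complex V took 0.391% to 0.437% in DP and 0.714% to 1.20% in the DS and IFD libraries, with hfDSC at 0.423% to 0.575%. Complex II, the smallest, took 0.0461% to 0.0629% in DP, 0.0718% to 0.0808% in hfDSC, 0.106% to 0.114% in DS and 0.0923% to 0.128% in IFD. By share of FPKM the DP libraries lay below all DS and IFD libraries in each of the 5 complexes. The gap was narrow for complex IV, where DP replicate 2, at 0.295%, lay next to IFD replicate 6, at 0.31%, and DS replicate 1, at 0.341%, lay inside the hfDSC range of 0.309% to 0.355%. The sums on the median-of-ratios scale overlapped instead. For complex I, DP replicates 1 and 2, at 1220 and 1281, lay above DS replicate 1, at 1127, and IFD replicate 6, at 1098. For complex IV, DP replicate 1, at 809, lay above DS replicate 1, at 558, and IFD replicate 6, at 499. For complex V, DP replicate 1, at 1162, lay above IFD replicate 6, at 1151.

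The F test across the 4 populations called 35 of the 76 tested subunits (46.1%), against a background of 56.8% of all 12774 entries tested. In single comparisons the largest counts were those of DP against DS and IFD. Against DS, DP had 36 subunits lower (47.4%, background 33.4%) and 2 higher (background 16.4%). Against IFD, DP had 36 lower (47.4%, background 28.6%) and 2 higher (background 13.7%). Against hfDSC, DP had 4 lower (5.26%, background 6.38%) and 0 higher (background 2.31%), although 69 of 76 estimates were below 0. The 3 comparisons share the DP libraries. DS against hfDSC gave 10 higher (13.2%, background 24.3%) and 4 lower (5.26%, background 19.6%), and hfDSC against IFD gave 3 higher (3.95%, background 17.9%) and 14 lower (18.4%, background 19.7%). With quantile normalization DS against hfDSC gave 19 higher (25%, where 23.9% of all entries were higher) and 4 lower (5.26%, all entries 18.4%). On the same scale hfDSC against IFD gave 3 higher (3.95%, all entries 17.4%) and 25 lower (32.9%, all entries 21.6%). No subunit passed between DS and IFD by limma's adjusted p (background 0.939% higher and 1.32% lower). There 8 of 76 subunits had an unadjusted limma p under 0.05, beside 15.5% of all entries.

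The median log2 fold change of the 76 subunits was -0.82 for DP against DS and -0.83 for DP against IFD, where the medians of all entries were -0.36 and -0.32. It was -0.45 for DP against hfDSC (all entries -0.25), 0.31 for DS against hfDSC (all entries 0.13), -0.35 for hfDSC against IFD (all entries -0.14) and -0.05 for DS against IFD (all entries 0.05). DP had the lowest mean of the 4 populations for 61 of 76 subunits (80.3%), compared with 42% of all entries. IFD had the highest mean for 38 subunits (50%, all entries 21.9%) and DS for 27 (35.5%, all entries 36%). The count was 9 for hfDSC (11.8%, all entries 26.7%) and 2 for DP (2.6%, all entries 15.5%).

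These counts depend on how the libraries are scaled to each other. With quantile normalization DP had 30 subunits lower than DS (39.5%, all entries 24.7%) and 2 higher (2.63%, all entries 18.9%). Against IFD it then had 37 lower (48.7%, all entries 21.3%) and 2 higher (2.63%, all entries 17.2%). Dividing each library by its median ratio to the geometric mean library moved the median of all entries by 0.35 for DP against DS and by 0.29 for DP against IFD. On that scale DP had 15 subunits lower than DS (19.7%, where 20.7% of all entries were lower). It had 4 higher than DS (Ndufa4l2, Cox4i2, Atp5s and Ndufv3), which was 5.26%, where 22.3% of all entries were higher. Against IFD it had 17 lower (22.4%, where 17.3% of all entries were lower) and 2 higher (2.63%, all entries 19.3%). Among the 15 were Ndufa10, Ndufb7, Ndufb8, Ndufs7, Ndufv1, Sdha, Uqcrc1, Uqcrc2, Cox8a, Atp5a1, Atp5b, Atp5c1, Atp5o and Atp5sl. Among the 17 were Ndufa9, Ndufa10, Ndufa11, Ndufb7, Ndufb10, Ndufs6, Ndufs7, Ndufv1, Ndufv2, Sdhb, Uqcrc1, Cox5a, Atp5a1, Atp5b, Atp5o and Atp5sl. DS against hfDSC then gave 6 higher (Ndufs1, Ndufa10, Uqcrc2, Atp5a1, Atp5b and Atp5sl) and 4 lower. These were 7.89% and 5.26%, where 17.9% of all entries were higher and 22% lower. Sdhc no longer passed for DP against hfDSC, nor did Ndufa10, Ndufb5, Ndufs7, Uqcrc2, Uqcrfs1 and Cox5a for hfDSC against IFD. Ndufv1, Sdha, Uqcrc1 and Atp5c1 no longer passed for DS against hfDSC. Subunits of the 84 named below as lower in DP than in DS or IFD that are not listed here did not pass on the median-of-ratios scale. The medians stayed below 0, at -0.40 for DP against DS and -0.45 for DP against IFD, with all entries at 0.00 and -0.03. DP then had the lowest mean for 43 of 76 subunits (56.6%, all entries 27.9%). The count for DP against DS was 21 without DS replicate 5, and that for DP against IFD was 24 without IFD replicate 1, 24 without IFD replicate 2 and 53 without IFD replicate 6, each in place of 38. The 4 genes for DP against hfDSC became 1 without hfDSC replicate 1, 1 without hfDSC replicate 2 and 2 without DP replicate 1. With the shared replicate number of these populations as a block they became 5 in the 6 libraries alone and 8 in a fit to all 12. For DS against hfDSC the 14 genes became 9 without hfDSC replicate 2. For hfDSC against IFD the 17 became 6 without hfDSC replicate 1, 8 without IFD replicate 1, 8 without IFD replicate 2, 26 without IFD replicate 6 and 30 with the block in all 12 libraries. Between DS and IFD, 2 subunits passed without IFD replicate 6. The share of all entries called in these refits, with a library left out or a block added, is not given here. A change in calls across all entries and a change in the subunits therefore cannot be told apart from these counts.

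**Figure D2:**
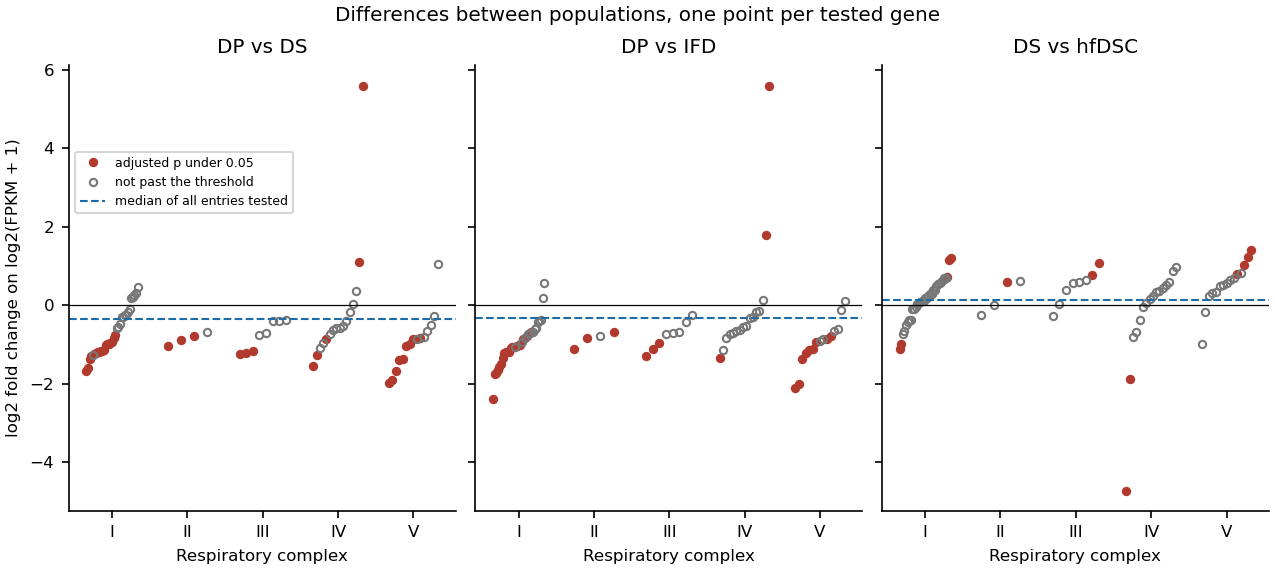
Log2 fold change on log2(FPKM + 1) (y axis) of each of the 76 tested subunits by respiratory complex (x axis) in 3 comparisons; filled points passed an adjusted p of 0.05 and the dashed line is the median of all entries tested. Most points for DP against DS and against IFD lie below the dashed line, and the 2 genes above 0 that passed are Ndufa4l2 and Cox4i2.

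Complex I, the NADH dehydrogenase, had 18 of 33 tested subunits lower in DP than in DS (background 33.4%). It had 20 lower in DP than in IFD (background 28.6%). Its most abundant subunits were the accessory subunits Ndufa2, Ndufb10 and Ndufb9, at 137, 107 and 104 FPKM over the 12 libraries. Ndufb7, an accessory subunit of the membrane arm, read 9.59, 13.3 and 10.4 FPKM in DP. It read 37.7, 29.9 and 21.3 in hfDSC, 24.9, 33.6 and 51.7 in DS and 32.7, 52.5 and 28.5 in IFD. Every DP library was below every other library. Ndufb7 was lower in DP than in hfDSC by a log2 fold change of -1.32 (SE 0.31, limma adjusted p = 0.0209), with -1.59 against DS (adjusted p = 0.00115) and -1.65 against IFD (adjusted p = 0.00129). The limma adjusted p against hfDSC was 0.0904 without hfDSC replicate 1, 0.0658 without hfDSC replicate 2 and 0.0651 without DP replicate 1. Among the 4 subunits lower in DP than in hfDSC were also the complex I subunit Ndufa7 (-1.58, adjusted p = 0.0256) and the complex II subunit Sdhc (-1.04, adjusted p = 0.0384). Ndufa7 did not pass without hfDSC replicate 1, hfDSC replicate 2 or DP replicate 4 (adjusted p 0.0975, 0.0761 and 0.0632). Sdhc did not pass without any 1 of the hfDSC replicates or without DP replicate 1, DP replicate 4 or DS replicate 4 (adjusted p 0.0537 to 0.129).

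Ndufa10 and Ndufs1 separated the populations along another line, with DS and IFD above hfDSC and DP. Ndufs1, the largest core subunit and holder of iron-sulfur clusters, read 46.9, 46.8 and 45.6 FPKM in DS and 48.4, 38.2 and 31.4 in IFD. It read 18.1, 20.3 and 22.4 in hfDSC and 20.0, 31.1 and 21.4 in DP. The DS libraries lay above all hfDSC and DP libraries, and IFD replicate 6 lay next to DP replicate 2. Ndufs1 was higher in DS than in hfDSC (1.16, SE 0.22, adjusted p = 0.00109), and its estimate for DP against hfDSC was 0.22 (adjusted p = 0.562). Ndufa10, an accessory subunit, averaged 43.8 ± 10.5 FPKM in hfDSC, 102 ± 23.7 in DS, 30.8 ± 3.91 in DP and 81.6 ± 20.7 in IFD (SD, n = 3). It was higher in DS than in hfDSC (1.21, adjusted p = 0.00276) and lower in DP than in DS (-1.68, adjusted p = 0.00026).

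Ndufs6 and Ndufs7 reached their highest levels in IFD. Ndufs6, an accessory subunit with a zinc site, read 29.7, 69.0 and 19.5 FPKM in IFD and 5.82, 8.87 and 3.61 in DP. All IFD libraries lay above all DP libraries. Its log2 fold change for DP against IFD was -2.39 (SE 0.46, adjusted p = 0.00146), and hfDSC was also lower than IFD (-1.55, adjusted p = 0.0182, but 0.0709 without hfDSC replicate 4 and 0.0824 without IFD replicate 2). Ndufs7, a core subunit that carries the last iron-sulfur cluster before ubiquinone, read 22.2, 22 and 19.8 FPKM in DP, 47.7, 40.9 and 40.1 in hfDSC, 41.9, 45.2 and 66.9 in DS and 78.9, 108 and 46.0 in IFD. DP did not overlap any other population. The difference passed against DS (-1.20, adjusted p = 0.00384) and IFD (-1.73, adjusted p = 0.000511) and narrowly missed against hfDSC (-0.97, adjusted p = 0.0513). The accessory subunit Ndufa12, low at 5.66 FPKM over the 12 libraries, was also lower in DP than in IFD (-1.75, adjusted p = 0.0276). This call was lost without DP replicate 1, DP replicate 4, IFD replicate 1 or IFD replicate 2 (adjusted p 0.0622, 0.0651, 0.113 and 0.0896).

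A pair of complex I genes ran against this order. Ndufv3, an accessory subunit of the NADH-oxidising module (chromosome 17, 31520115 to 31531326), read 122, 115 and 125 FPKM in hfDSC. It read 45.9, 71.3 and 66.0 in DS, 72.9, 90.4 and 57.7 in DP and 74.6, 79.9 and 43.4 in IFD. All 3 hfDSC libraries stood above the other 9. Ndufv3 was lower in DS than in hfDSC (-1.0, SE 0.27, adjusted p = 0.00963) and higher in hfDSC than in IFD (0.91, adjusted p = 0.0181), and its estimate for DP against hfDSC was -0.73 (adjusted p = 0.112). The difference from IFD did not pass with the replicate number as a block (0.64, adjusted p = 0.0858), without hfDSC replicate 1 (adjusted p = 0.0525) or without IFD replicate 6 (adjusted p = 0.0619). Ndufa13, also known as GRIM-19, read 44.2, 49.1 and 37.9 FPKM in hfDSC and 14.9, 17.1 and 29.9 in DS, without overlap. It was lower in DS than in hfDSC (-1.10, adjusted p = 0.0146), while IFD, at 46.4, 53.8 and 26.5 FPKM, covered the hfDSC range. The adjusted p of Ndufa13 was 0.0503 without hfDSC replicate 2, 0.0602 without DS replicate 1 and 0.0526 without DS replicate 4.

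**Figure D3:**
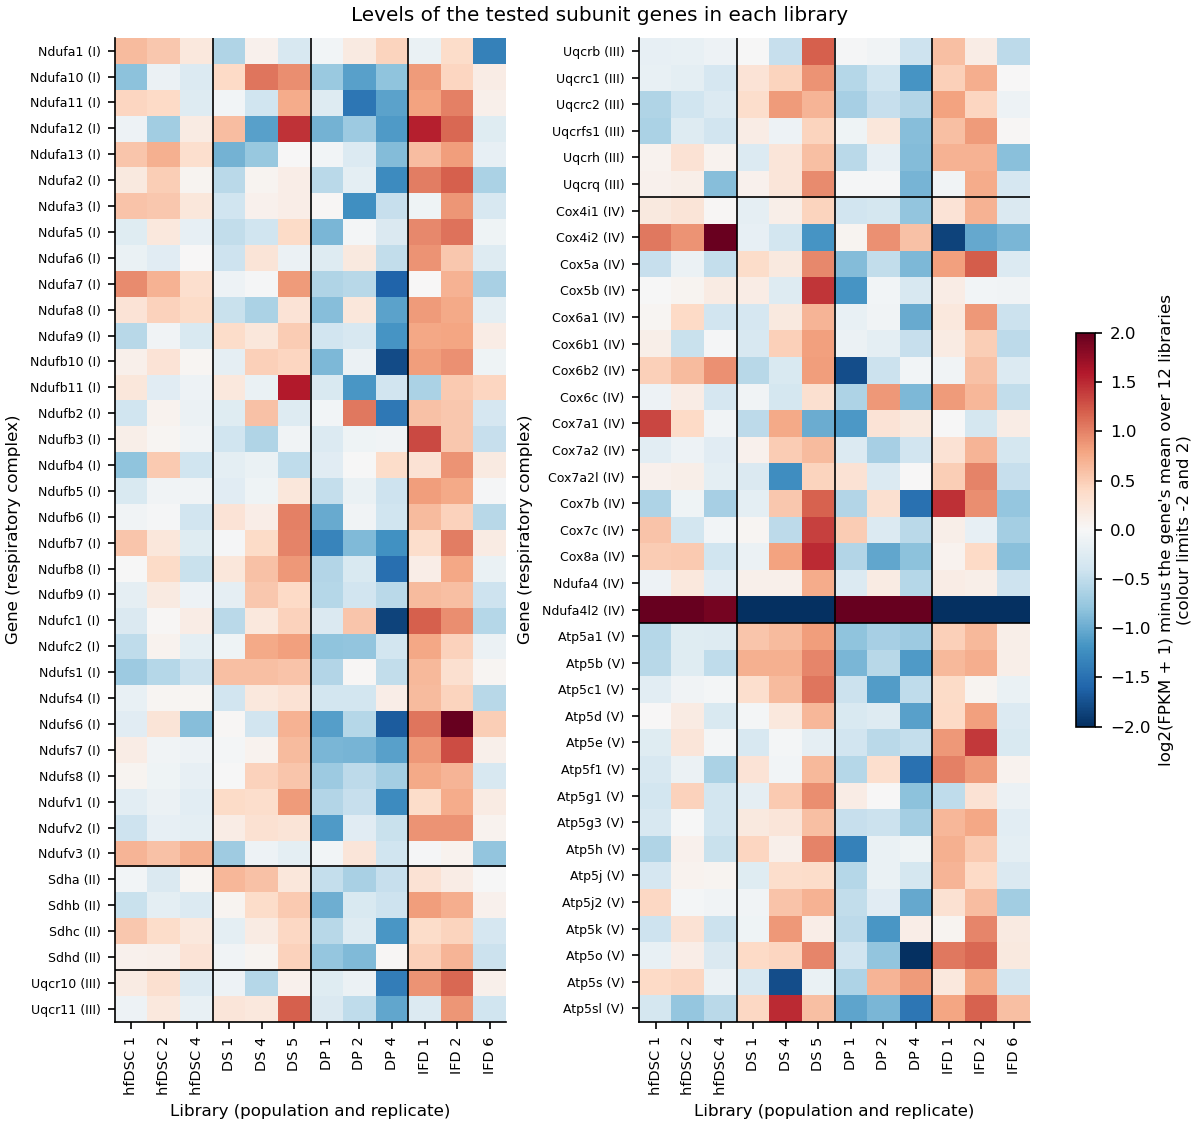
Level of 75 of the 76 tested subunit genes (rows, with the complex in parentheses) in each of the 12 libraries (columns), as log2(FPKM + 1) minus the gene's mean over the libraries, with colours limited to -2 and 2. The DP columns are mostly blue and IFD replicates 1 and 2 mostly red, while Ndufa4l2 and Cox4i2 are red in hfDSC and DP.

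Complex II, succinate dehydrogenase, is also an enzyme of the citric acid cycle and is encoded wholly in the nucleus. Sdhb, the iron-sulfur subunit, was its most abundant subunit at 66.9 FPKM over the 12 libraries, followed by the membrane anchor Sdhc at 49.5, the flavoprotein Sdha at 41.6 and the anchor Sdhd at 35.1. Sdha read 63.6, 60.7 and 46.9 FPKM in DS against 38.6, 32.7 and 41.1 in hfDSC, without overlap, and was higher in DS (0.59, adjusted p = 0.0242). This call was lost without hfDSC replicate 1, hfDSC replicate 2, DS replicate 1 or DS replicate 4 (adjusted p 0.0563, 0.0953, 0.0863 and 0.0759). Sdhc averaged 52 ± 11.1 FPKM in DS and 61.4 ± 7.23 in hfDSC (SD, n = 3), with an estimate of -0.25 (adjusted p = 0.496). In DP, at 28.3, 25.0 and 28.6 FPKM, Sdha was below all other libraries and lower than in DS (-1.03, SE 0.19, adjusted p = 0.000837). Sdhb and Sdhc were also lower in DP than in DS and than in IFD, and Sdhd, with -0.69 against DS and -0.78 against IFD, did not pass (adjusted p = 0.0796 and 0.0578). Against DS, Sdhb was lost without DS replicate 5 or DP replicate 1 (adjusted p 0.0506 and 0.0558). Sdhc was lost against DS with the replicate block (adjusted p = 0.0528) and without DS replicate 4 or 5 or DP replicate 1 or 4 (0.056 to 0.129), and against IFD without DP replicate 1 or 4 or IFD replicate 1 or 2 (0.054 to 0.117).

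Complex III, cytochrome bc1, had 3 of 8 tested subunits lower in DP than in DS (background 33.4%). It had 3 lower in DP than in IFD (background 28.6%). The core proteins Uqcrc1 and Uqcrc2 were among the 3 in each comparison. Uqcrc2 (chromosome 7, 120635189 to 120659523) was the most abundant subunit and read 95.7, 135 and 120 FPKM in DS, 130, 100 and 69.5 in IFD, 48.5, 55.9 and 61.1 in hfDSC and 46.4, 53.6 and 49.1 in DP. The DS and IFD libraries lay above all hfDSC and DP libraries, which overlapped each other. It was higher in DS than in hfDSC (1.06, SE 0.24, adjusted p = 0.00349) and lower in DP than in DS (-1.21, adjusted p = 0.0013). Uqcrc1 averaged 46.9 ± 3.16 FPKM in hfDSC, 81.4 ± 19.2 in DS, 33.8 ± 9.1 in DP and 74.5 ± 18.3 in IFD (SD, n = 3), and was likewise lower in DP than in DS (-1.25, adjusted p = 0.0018). Uqcrfs1, the Rieske iron-sulfur protein, averaged 44 ± 5.81, 67.3 ± 13.1, 52.4 ± 18.6 and 85.8 ± 24 FPKM in the same order, and was lower in hfDSC than in IFD (-0.92, adjusted p = 0.0283). Uqcrfs1 did not pass without hfDSC replicate 1 or 4 or IFD replicate 1 or 2 (adjusted p 0.0577 to 0.109). The small subunit Uqcrq, at 76.4 FPKM over the 12 libraries, passed in no comparison. Uqcr10, a small subunit, was lower in DP than in IFD (-1.30, adjusted p = 0.0119, but 0.055 without IFD replicate 2).

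Complex IV, cytochrome c oxidase, held the gene with the highest level of all, Cox4i1, and the 2 subunits that were higher in DP. It had 3 of 16 tested subunits lower in DP than in DS and 1 lower in DP than in IFD, shares below the backgrounds of 33.4% and 28.6%. Cox4i1, the ubiquitous form of subunit 4 (chromosome 8, 120668225 to 120674209), averaged 379 ± 30.2 FPKM in hfDSC, 375 ± 81 in DS, 240 ± 38.8 in DP and 413 ± 137 in IFD (SD, n = 3). The DP libraries, at 259, 266 and 196 FPKM, were the 3 lowest, but the difference did not pass against DS (-0.63, adjusted p = 0.0854) or IFD (-0.74, adjusted p = 0.0546). Cox6a1 (124 FPKM over the 12 libraries) and Cox6b1 (78.6), the next most abundant, passed in no comparison. Cox5a, which joins subunit 4 early in assembly, was lower in DP than in DS (-1.26, adjusted p = 0.00805) and IFD (-1.34, adjusted p = 0.0072), with 17.3, 22.7 and 16.9 FPKM in DP and 42.1, 37.1 and 64.0 in DS. Cox8a was lower in DP than in DS (-1.54, adjusted p = 0.0082), as was Cox7a2 (-0.85, adjusted p = 0.0153, but 0.0626 without DS replicate 5 and 0.0546 without DP replicate 2).

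Ndufa4l2 and Cox4i2 ran opposite to most other subunits in the comparisons of DP with DS and IFD. Of 76 estimates, 66 were below 0 for DP against DS and 70 for DP against IFD. Ndufa4l2 is a paralogue of Ndufa4, a protein first assigned to complex I and now placed in complex IV, and is known as a target of the hypoxia-inducible factor HIF-1. It lies on chromosome 10 from 127509274 to 127517154 and read 30.4, 24.8 and 21.5 FPKM in hfDSC and 85.2, 43.2 and 28.5 in DP. It is listed at 0 in all 6 DS and IFD libraries, so hfDSC and DP stood wholly above DS and IFD and overlapped each other. The limma adjusted p was 4.23e-07 for DP against DS and 1.03e-06 for DS against hfDSC, and no fold is given against values of 0. The p-values carry a limit too, because the fit pools the spread of all populations and the 6 libraries at 0 show none. A 0 in this table may be a failed estimate, and the complex I subunit Ndufs5 is listed at 0 in 10 libraries. The 2 genes differ in the search for near-identical genes described below. Another gene matches 99.4% of the coding sequence of Ndufs5 and 0% of that of Ndufa4l2 is matched. Whether the 0 values of Ndufa4l2 are failed estimates was not tested. For DP against hfDSC the log2 fold change was 0.87 (SE 0.33, adjusted p = 0.121). Ndufa4 itself averaged 25.1 ± 4.12 FPKM in hfDSC, 32.6 ± 9.12 in DS, 22.1 ± 6.03 in DP and 25.1 ± 5.35 in IFD (SD, n = 3) and passed in no comparison. Ndufa4l2 therefore made up 45.4% to 56.3% of the pair in hfDSC libraries and 60.1% to 80.3% in DP libraries.

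Cox4i2, the second form of subunit 4, known from lung and also described as induced at low oxygen, read 6.5, 5.73 and 13.2 FPKM in hfDSC and 2.75, 5.83 and 4.42 in DP. It read 2.23, 1.79 and 0.586 in DS, is listed at 0 in IFD replicate 1 and read 0.776 and 0.925 in the other two IFD libraries. All hfDSC and DP libraries lay above all DS and IFD libraries. Cox4i2 was higher in hfDSC than in IFD (2.57, SE 0.40, adjusted p = 0.000385), lower in DS than in hfDSC (-1.89, adjusted p = 0.00242) and higher in DP than in DS (1.09, adjusted p = 0.0376). The limma adjusted p of this last difference was 0.157 without DS replicate 5, 0.12 without DP replicate 2, 0.0728 without DP replicate 4, 0.0542 without DS replicate 4, 0.133 with a pseudocount of 0.1 and 0.182 with the replicate number as a block. It remained a minor form, with at most 3.7% of subunit 4 FPKM, in hfDSC replicate 4. Of 7 tested genes of a hypoxia response list, 2 passed the F test, in opposite order, where 56.8% of all entries passed. The list's median for DP against DS turned from -0.18 to 0.23 on the median-of-ratios scale. Vegfa, a vascular growth factor, averaged 32 ± 3.06 FPKM in hfDSC and 28 ± 4.85 in DP against 11.2 ± 7.34 in DS and 13 ± 4.32 in IFD. Pdk1, a kinase that inhibits pyruvate dehydrogenase, averaged 2.72 ± 0.799 and 3.36 ± 0.529 FPKM against 8.84 ± 1.4 and 5.51 ± 0.837 in the same order. The fibroblast and papilla marker sums given above separate the same libraries as Ndufa4l2 does, and the proliferation sums do so in reverse order. Those of 5 pericyte genes (9.72 to 45.1 FPKM in hfDSC and DP, 4.91 to 76.9 in DS and IFD) overlap. The part of any cell type in the levels of Ndufa4l2 was not tested.

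**Figure D4:**
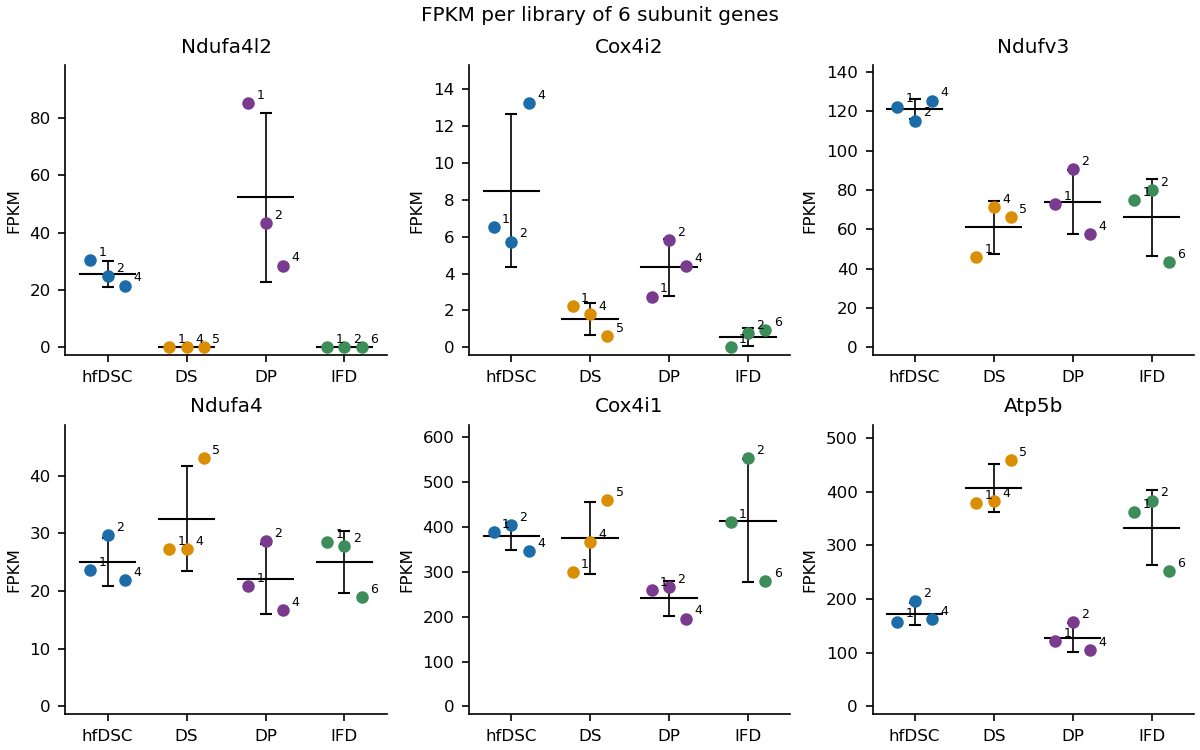
FPKM (y axis) of 6 subunit genes in the 4 populations (x axis); points are libraries labelled with their replicate number, the horizontal line is the mean and the bar the SD (n = 3). Ndufa4l2 is at 0 in all DS and IFD libraries while Ndufa4 is not, the 3 hfDSC points for Ndufv3 stand above all others, and Atp5b is at 253 FPKM or more in every DS and IFD library and at 196 or less in every other.

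Among the remaining isoforms of complex IV, the calls were those of Cox7a2 and Cox8a given above. The muscle forms Cox6a2 and Cox8b were near 0: Cox6a2 made up at most 0.124% of subunit 6A, and Cox8b read 0.0905 FPKM in hfDSC replicate 1 and 1.72 in DP replicate 2, with the other 10 libraries listed at 0. The testis forms Cox7b2 and Cox8c were listed at 0 in 11 and 12 libraries. Cox7a1, the heart and skeletal muscle form of subunit 7A, averaged 4.45 FPKM over the 12 libraries beside 36.2 for Cox7a2 and 5.94 for Cox7a2l, and passed in no comparison. Cox6b2, known as a testis form of subunit 6B, was not rare here. It read 24.6, 27.5 and 33.4 FPKM in hfDSC, 11.4, 13.9 and 31.8 in DS, 4.36, 12.6 and 16.6 in DP and 16.5, 26.6 and 14.1 in IFD. It made up 29.1% ± 5.36 of subunit 6B in hfDSC and 15.1% ± 8.81 in DP (SD, n = 3). Its hfDSC libraries lay above the DP libraries, but the estimate of -1.43 for DP against hfDSC did not pass (adjusted p = 0.067).

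Complex V had 9 of 15 tested genes lower in DP than in DS (background 33.4%) and 9 lower than in IFD (background 28.6%). Atp5b, the beta subunit that makes ATP (chromosome 10, 128083307 to 128090388), read 122, 157 and 105 FPKM in DP and 158, 196 and 163 in hfDSC. It read 379, 382 and 459 in DS and 362, 383 and 253 in IFD. The DS and IFD libraries lay wholly above the others, and DP and hfDSC touched at 157 and 158 FPKM. Atp5b was higher in DS than in hfDSC (1.23, SE 0.24, adjusted p = 0.00151), lower in DP than in DS (-1.67, adjusted p = 0.000163) and lower in hfDSC than in IFD (-0.93, adjusted p = 0.0101). Atp5a1, the alpha subunit, followed with 182 ± 23 FPKM in hfDSC, 373 ± 37.1 in DS, 140 ± 6.25 in DP and 314 ± 55.6 in IFD (SD, n = 3), and a log2 fold change of -1.41 for DP against DS (adjusted p = 0.000248).

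The most abundant complex V gene did not follow the catalytic subunits. Atp5e, the epsilon subunit of the central stalk, read 218, 307 and 252 FPKM in hfDSC, 206, 253 and 228 in DS, 197, 178 and 186 in DP and 472, 691 and 209 in IFD. Its high values in IFD came from replicates 1 and 2. It was lower in DP than in IFD (-1.12, adjusted p = 0.0227, but 0.055 without DP replicate 2, 0.0732 without IFD replicate 1 and 0.103 without IFD replicate 2), and its estimate for DS against hfDSC was -0.17 (adjusted p = 0.731). Subunit c, which forms the rotor ring and comes from 3 genes with different leader peptides, was read almost wholly from Atp5g3, with at least 99.3% in every library. This share is uncertain. Other genes match 100% of the coding sequences of Atp5g1 and Atp5g2 and 0% of that of Atp5g3, a point taken up below. Atp5g3 averaged 195 ± 27.9, 292 ± 46.8, 159 ± 14.2 and 316 ± 104 FPKM in hfDSC, DS, DP and IFD.

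Among the remaining complex V symbols, Atp5sl had the smallest p of the F test. Despite its symbol, its product is known as an assembly factor of complex I (DMAC2) and not as a part of ATP synthase. It read 5.76, 4.08 and 4.95 FPKM in hfDSC and 3.16, 3.61 and 2.2 in DP, against 10.5, 23.5 and 12.2 in DS and 14.0, 18.7 and 12.1 in IFD. The DS and IFD libraries were all above the others. It was higher in DS than in hfDSC (1.40, adjusted p = 0.00264), and lower in DP than in DS (-1.98, adjusted p = 0.000216) and IFD (-1.99, adjusted p = 0.000302). Atp5s, related to coupling factor B, was low at 2.77 FPKM over the 12 libraries, ran from a listed 0 in DS replicate 4 to 5.17 in DP replicate 4. It passed in no comparison of deposited FPKM, and on the median-of-ratios scale it was higher in DP than in DS (1.33, adjusted p = 0.0377). Atp5o, the oligomycin-sensitivity subunit of the stator, had one of the largest differences in both DP comparisons (-1.90 against DS, adjusted p = 0.00629, and -2.10 against IFD, adjusted p = 0.00453). DP replicate 4, at 2.46 FPKM, lay far below DP replicates 1 and 2, at 16.5 and 12.1, and the level of Atp5o is uncertain for the reason given next.

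Levels of subunits inside one complex, which assemble in fixed proportions, ranged widely. Outside the alternative isoforms, those under 5 FPKM were genes with near-identical sequence in transcripts of other genes, Atp5s excepted. The coding sequence of each member was compared with all GENCODE M21 mouse transcripts. For 12 members the whole coding sequence was matched in this way at 95% identity or more. Their median level was 2.63 FPKM over the 12 libraries, and 9 of the 12 were under 5 FPKM. The 10 members matched over at least 50% but not all of their coding sequence had a median of 13.3 FPKM, the 11 matched over a smaller part 45.0, and the 42 without a match and without an alternative isoform 49.3, with 1 of 42 under 5 FPKM. Obligate subunits stood among the lowest: Ndufs3, a core complex I subunit, ran from 0.118 to 1.93 FPKM and Uqcrb, a complex III subunit, from 0.334 to 3.39. How the authors' counting treated reads that match several genes is not given in the sources used here, and its part in these levels was not tested. The levels and differences of all 22 members matched over at least 50% are therefore uncertain, Atp5g1, Atp5g2, Atp5o, Ndufa12 and Uqcr10 included.

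The first 90 bases of the Ndufs3 and Uqcrb coding sequences are shown above the same stretch of a processed pseudogene that matches the whole coding sequence, because they show how little separates a read of one from the other. Capitals mark bases of the pseudogene that differ. Over the whole coding sequence the Ndufs3 copy, Gm12251 (chromosome 11, 58392769 to 58393560), was 98.6% identical over 792 bases, with 3 differences in the stretch shown. The Uqcrb copy, Gm16089 (chromosome 5, 137615627 to 137615962), was 97.9% identical over 336 bases, with 4 differences in the stretch shown.
Ndufs3: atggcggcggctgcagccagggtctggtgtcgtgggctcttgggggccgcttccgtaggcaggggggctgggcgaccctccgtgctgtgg
Gm12251: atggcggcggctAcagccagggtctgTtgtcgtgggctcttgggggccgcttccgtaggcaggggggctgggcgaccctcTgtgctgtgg
Uqcrb: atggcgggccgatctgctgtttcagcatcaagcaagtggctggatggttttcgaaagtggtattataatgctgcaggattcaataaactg
Gm16089: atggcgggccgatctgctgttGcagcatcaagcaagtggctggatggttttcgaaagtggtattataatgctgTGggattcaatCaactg

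**Figure D5:**
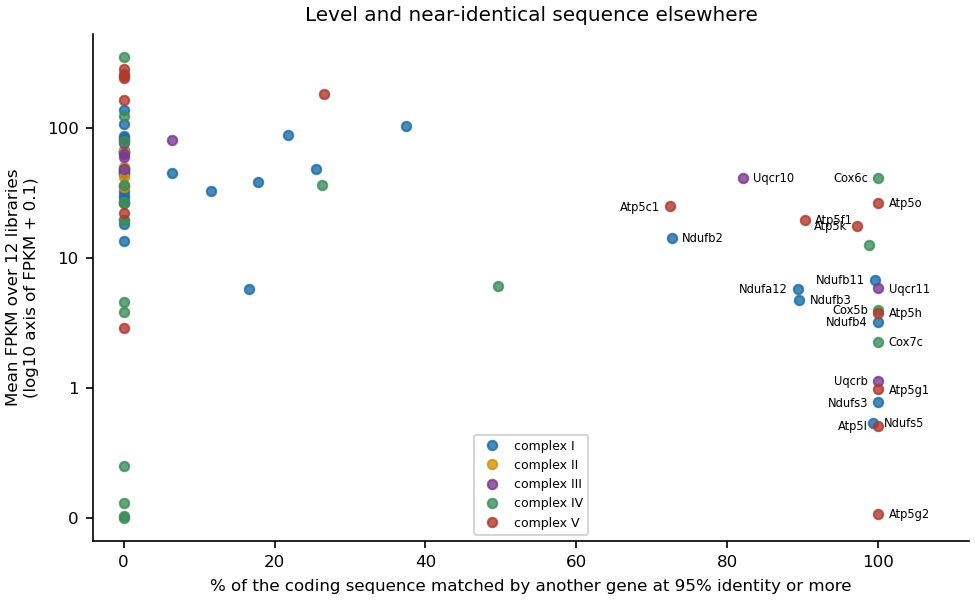
Mean FPKM over the 12 libraries (y axis, log10 of FPKM + 0.1) of 83 subunit genes against the percentage of their coding sequence matched by another gene at 95% identity or more (x axis), coloured by complex; genes matched over at least 50% are named, except where they lie on top of others. Of the 12 genes matched over 100% of their coding sequence, 9 are under 5 FPKM.

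The promoters of the subunit genes were read for 3 short motifs, as a description without a test. These are the cores bound by NRF1 (GCATGCGC), by ETS factors such as GABPA (CCGGAAG) and by YY1 (AAGATGGC), each searched on both strands with no overlap between the 3. RefSeq (GRCm38.p6) gave windows of 250 bases before to 50 bases after the start for 68 of the 84 genes, 73 windows in all. The NRF1 core was in 13.7% of the member windows and 2.71% of all 32851 windows, the ETS core in 21.9% and 8.86%, and the YY1 core in 13.7% and 2.75%. A match is a run of letters and not a proven binding site. Motifs were not compared between members that passed and members that did not. The windows of 4 genes lower in DP than in DS are shown, one or more for each motif, with the motifs in capitals: Uqcrc1 (chr9:108936398-108936697, plus strand) has the NRF1 core on both strands in one palindromic run, Sdhb (chr4:140961021-140961320, plus strand) the NRF1 and ETS cores, Ndufb7 (chr8:83566508-83566807, plus strand) the ETS core and Ndufs7 (chr10:80249199-80249498, plus strand) the YY1 core. The Ndufs7 match lies close to the 3′ end of its window.
Uqcrc1: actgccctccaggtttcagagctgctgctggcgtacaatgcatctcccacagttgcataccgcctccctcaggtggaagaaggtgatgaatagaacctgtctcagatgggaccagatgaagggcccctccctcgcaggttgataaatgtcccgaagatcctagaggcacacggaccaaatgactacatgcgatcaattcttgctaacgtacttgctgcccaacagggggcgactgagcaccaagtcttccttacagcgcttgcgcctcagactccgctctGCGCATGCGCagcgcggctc
Sdhb: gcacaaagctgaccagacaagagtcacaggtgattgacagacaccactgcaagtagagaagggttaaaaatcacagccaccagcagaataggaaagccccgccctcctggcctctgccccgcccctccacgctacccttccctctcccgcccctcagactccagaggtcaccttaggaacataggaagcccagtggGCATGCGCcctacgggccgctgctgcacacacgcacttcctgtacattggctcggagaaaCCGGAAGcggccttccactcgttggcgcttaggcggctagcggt
Ndufb7: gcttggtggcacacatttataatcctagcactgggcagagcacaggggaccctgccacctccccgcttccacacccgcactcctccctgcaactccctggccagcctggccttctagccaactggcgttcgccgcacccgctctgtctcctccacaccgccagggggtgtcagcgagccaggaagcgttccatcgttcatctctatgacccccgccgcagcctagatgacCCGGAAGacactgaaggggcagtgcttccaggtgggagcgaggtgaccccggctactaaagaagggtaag
Ndufs7: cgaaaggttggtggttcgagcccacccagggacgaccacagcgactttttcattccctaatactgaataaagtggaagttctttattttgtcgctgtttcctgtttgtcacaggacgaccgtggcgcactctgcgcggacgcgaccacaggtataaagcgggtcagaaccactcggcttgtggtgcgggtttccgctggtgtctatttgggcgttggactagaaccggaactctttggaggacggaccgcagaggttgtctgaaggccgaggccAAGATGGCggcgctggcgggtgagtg

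Most genes for these factors and other regulators of mitochondrial biogenesis were lower in DP than in DS. A link between their levels and those of the subunits was not tested. Of 13 tested regulators, 11 were lower in DP than in DS (background 33.4%) and 9 lower in DP than in IFD (background 28.6%), and 8 were higher in DS than in hfDSC (background 24.3%). On the median-of-ratios scale these counts were 9, 4 and 6, where 20.7%, 17.3% and 17.9% of all entries were called. On that scale 1 regulator was higher in DP than in DS (all entries 22.3%). Nrf1 read 5.5, 5.26 and 4.68 FPKM in hfDSC and 4.13, 4.39 and 8.26 in DP, against 16.8, 12.7 and 12.7 in DS and 8.91, 15.6 and 12.4 in IFD, without overlap between the 2 pairs of populations. It was higher in DS than in hfDSC (1.29, adjusted p = 0.00257) and lower in DP than in DS (-1.24, adjusted p = 0.00278). Gabpa averaged 8.27 ± 1.56 FPKM in hfDSC, 17.7 ± 0.999 in DS, 6.36 ± 1.37 in DP and 12.2 ± 3.36 in IFD, and Tfam, which packages mitochondrial DNA, 4.65 ± 0.971, 10.3 ± 1.07, 3.38 ± 0.908 and 8.64 ± 1.57. Yy1 averaged 18.1 ± 3, 35.9 ± 3.69, 16.7 ± 3.45 and 19.5 ± 4.82 FPKM in the same order and was lower in DP than in DS (-1.07, adjusted p = 0.0025), with an estimate of -0.20 against IFD (adjusted p = 0.519). Ppargc1b, a coactivator of these programmes, averaged 0.174 ± 0.166 FPKM in DP and 2.64 ± 0.697 in DS, and Peo1, the mitochondrial DNA helicase, 1.5 ± 1.45 and 7.14 ± 1.14 (SD, n = 3). Ppargc1a, the related coactivator, was at or under 1.67 FPKM in all 12 libraries and did not pass the F test (adjusted p = 0.115).

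Other genes of the system were counted in the same way. Of 4 tested subunits whose symbols lie outside the rule, Cyc1, the cytochrome c1 subunit of complex III, averaged 47 ± 11.4 FPKM in hfDSC, 91.6 ± 14.4 in DS, 30.8 ± 4.04 in DP and 84.3 ± 26.6 in IFD. It was lower in DP than in DS (-1.54, adjusted p = 0.000367) and than in IFD (-1.39, adjusted p = 0.00103), with all DP libraries below all others. Ndufab1, the acyl carrier subunit of complex I, averaged 0.875 ± 1.02 FPKM in hfDSC and 1.1 ± 0.955 in DP against 3.07 ± 0.244 in DS and 5.12 ± 0.606 in IFD. The small ATP synthase subunit 2010107E04Rik was lower in DP than in IFD (-1.45, adjusted p = 0.00313), and Usmg5 passed in no comparison.

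Factors that build the complexes are set beside the same backgrounds, 33.4% lower in DP than in DS and 28.6% lower in DP than in IFD. Of 14 tested complex I assembly factors, 6 were lower in DP than in DS and 7 lower in DP than in IFD. Acad9, one of them, read 5.18, 5.97 and 5.86 FPKM in hfDSC and 24.9, 23.2 and 21.6 in DS without overlap, and was lower in DP than in DS (-1.69, adjusted p = 7.37e-05). Of 11 factors of complexes II, III and V, 3 were lower in DP than in DS and 2 lower in DP than in IFD, led by Atpaf2 (-1.41 against DS, adjusted p = 0.00425). Of 18 complex IV factors, 5 were lower and 1 higher in DP than in DS, and 4 lower and 1 higher in DP than in IFD. The shares lower in these last 2 lists were below the backgrounds. Lrpprc, which stabilises mitochondrial messenger RNA, averaged 5.93 ± 1.12 FPKM in hfDSC, 19.3 ± 1.89 in DS, 3.47 ± 0.544 in DP and 12.9 ± 2.57 in IFD (SD, n = 3), and was lower in DP than in DS (-2.18, adjusted p = 1.47e-05). On the median-of-ratios scale 4 of 14, 1 of 11 and 3 of 18 factors of these lists were lower in DP than in DS (all entries 20.7%), and the median of the complex IV factors for DP against DS turned from -0.22 to 0.13.

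The enzymes that feed the respiratory chain and the machinery of mitochondrial translation and import were included for comparison. Of 15 tested genes of pyruvate dehydrogenase and the citric acid cycle, 12 were lower in DP than in DS, 7 lower in DP than in IFD and 7 higher in DS than in hfDSC, beside backgrounds of 33.4%, 28.6% and 24.3%. Citrate synthase, Cs, read 24, 25.9 and 25.0 FPKM in hfDSC and 28.2, 24.1 and 20.6 in DP, against 70.9, 71.9 and 89.1 in DS and 57.1, 45.6 and 51.9 in IFD. Its DS and IFD libraries lay wholly above the others, and it was lower in DP than in DS (-1.63, adjusted p = 3.12e-05). Of 74 tested mitochondrial ribosomal proteins, 45 were lower in DP than in DS, 41 lower in DP than in IFD and 23 higher in DS than in hfDSC, with a median log2 fold change of -0.99 for DP against DS. Mrpl38, for example, averaged 5.24 ± 1.58 FPKM in DP and 30.1 ± 5.63 in DS. Of 16 import genes, 7 were lower in DP than in DS and 11 lower in DP than in IFD, among them Timm50 (-2.11 against DS, adjusted p = 3.92e-05). On the median-of-ratios scale the genes lower in DP than in DS numbered 5 of 15 in the citric acid cycle list, 25 of 74 mitochondrial ribosomal proteins and 4 of 16 import genes, where 20.7% of all entries were lower.

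Of 5 tested genes for electron carriers, carriers of the inner membrane and uncoupling, 4 were lower in DP than in DS (background 33.4%) and 3 lower in DP than in IFD (background 28.6%). Ucp2, a carrier of the uncoupling protein family, read 417, 360 and 868 FPKM in DS, 186, 282 and 119 in hfDSC, 120, 103 and 129 in IFD and 75.8, 42.0 and 51.2 in DP. DS stood above and DP below every other library. Ucp2 was higher in DS than in hfDSC (1.46, adjusted p = 0.00769) and lower in DP than in DS (-3.19, adjusted p = 3.66e-05). Slc25a4, the heart and muscle form of the ADP/ATP carrier, was high in the stem cells, with 154, 166 and 189 FPKM in hfDSC against 51.9, 56.8 and 86.7 in DS, and was lower in DS than in hfDSC (-1.40, adjusted p = 0.00275). Its hfDSC libraries lay above all others. On the median-of-ratios scale 2 of the 5 were lower (all entries 20.7%) and 1 higher (all entries 22.3%) in DP than in DS.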

How the data were processed

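The authors deposited FPKM values per gene and library in 1 table. Per the submitters' processing notes the tools were TopHat2 2.0.13, SAMtools and Cufflinks 2.2.1 with the mm10 build, without stated roles, and the annotation is not given in the sources used here. Depth per gene is unknown, since raw counts were not used. FPKM carries differences in composition between libraries and, for low genes, unequal depth. Tests covered entries that reached 1 FPKM in 3 or more libraries. They were run on log2(FPKM + 1) in limma (version 3.58.1, under R 4.3.3). The model had 4 population means over all 12 libraries, a mean-variance trend, 8 residual and 4.61 prior degrees of freedom. P-values are two-sided, adjusted by Benjamini-Hochberg over all tested entries, with a threshold of 0.05. Fold changes are on the log2(FPKM + 1) scale, which understates low genes. The code was tested on simulated data.

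The members and lists were chosen with earlier results of these data known. 1 member is included in counts, sums and fits but is not reported here. Genes named were, per complex, the 3 most abundant and the 3 with the smallest F test p, all isoform pairs, up to 5 per direction and comparison with the largest change among those called, members at 0 in 1 library and at 5 FPKM or more in another, up to 3 called genes per list by F test p, and regulators. Coordinates are RefSeq GRCm38.p6, found for 83 members. Near-identical genes were searched with blastn 2.17.0 (95% identity, at least 50 bases). Alternatives were pseudocount 0.1, no filter, median-of-ratios and quantile scaling, a replicate block and leaving out each library. Replicate numbers were taken as pairing hfDSC with DP: deviations of same-numbered libraries correlated at 0.306, 0.241 and 0.389 for numbers 1, 2 and 4, judged from the data and the titles alone. Over the subunits these values were 0.179, 0.119 and 0.181. DS replicate 1 and IFD replicate 6, of different numbers, correlated at 0.445, so the pairing is not established. The main fit did not use it, and the block in all 12 libraries also used the numbers of DS and IFD.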

Additional observations from a re-analysis of the deposited data

How the results depend on the processing

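Leaving out each library in turn gave 28 to 52 subunits by the F test, 9 to 21 for DS against hfDSC, 1 to 6 for DP against hfDSC, 21 to 41 for DP against DS, 6 to 26 for hfDSC against IFD, 0 to 2 for DS against IFD and 24 to 53 for DP against IFD. Median-of-ratios scaling gave 19 by the F test (25% of members, where 50.3% of all entries were called), 19 for DP against DS, 11 for hfDSC against IFD and 19 for DP against IFD. Quantile scaling gave 23 for DS against hfDSC, 32 for DP against DS, 28 for hfDSC against IFD and 39 for DP against IFD. Without a filter on low values 2 were called for DP against hfDSC and 25 for DP against DS, of which 24 were among the 38. Adding a replicate block to the fit of all 12 libraries gave 53 by the F test, 8 for DP against hfDSC and 30 for hfDSC against IFD. In the 6 libraries of DP and hfDSC alone the block gave 5, and the fit without it 3. Apart from the F test under median-of-ratios scaling, no share of all entries is given beside these counts here. The cause of these shifts was not tested.

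Of 111 calls of single subunits, 51 did not pass under median-of-ratios scaling, 33 without a filter, 12 under quantile scaling, 9 with the block and 5 with pseudocount 0.1, all with the same direction. Leaving out DP replicates 1 and 2 together, a choice made after seeing the data because their keratinocyte sums stand above the other libraries, lost 28. The lone DP library was then assumed to vary like the other groups. Depth is not given, so low values have no counting interval.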
